A study of Bos taurus with 16 samples.

Results

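The mRNAs for 45 genes that build the nucleolus and make ribosomes were followed through bovine pre-implantation development in vivo. The genes were taken by name for their known roles, with earlier results of these data known. They code for abundant nucleolar proteins, the small nucleolar ribonucleoproteins that modify ribosomal RNA (rRNA), RNA polymerase I and its initiation factors, and the assembly factors of the small and large ribosomal subunits. By name 44 of the 45 were found among the 27393 loci measured, and 43 of these had reads. The gene UTP20 was not found by name. DKC1, which codes for the pseudouridine synthase of box H/ACA ribonucleoproteins, was listed at 0 in all 16 samples, within a run of 2578 consecutive loci listed at 0. NOLC1 and POLR1B had a pair of loci each, and for these the locus whose mean over the 16 samples was higher stands for the gene.

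Each sample was 1 bovine (Bos taurus) oocyte or embryo that had developed in vivo, with 2 samples at each of 8 stages. The stages were mature oocytes (MII), embryos of 2, 4, 8 and 16 cells (2C, 4C, 8C and 16C), early morulae (EM), compact morulae (CM) and blastocysts (BL). The labels give no breed, animal, treatment or genotype, and do not say whether embryos of a stage shared parents, so that p-values measure the spread between these samples. In embryos developed in vivo, embryonic genome activation (EGA) is placed between 4C and 8C. The 6 MII, 2C and 4C samples are therefore called before EGA, and the 10 samples from 8C to BL after EGA. RNA was extracted from each oocyte or embryo on its own and amplified in 2 rounds before sequencing.

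The nucleolus forms around the repeated genes for rRNA, which RNA polymerase I transcribes into 1 long precursor. Box C/D and box H/ACA ribonucleoproteins place methyl groups and pseudouridines on that precursor, while large complexes fold and cut it and add ribosomal proteins until the small and the large subunit can leave the nucleus. A fully grown oocyte carries stored ribosomes and transcribes little, and its nucleolus comes apart at maturation. In cattle the early cleavage embryo has compact nucleolus precursor bodies, and nucleoli that make ribosomes appear in the period of genome activation.

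Levels are given as normalised read counts, which are reads divided by the size factor of the sample. They are not divided by gene length, so a level was compared only between samples of the same gene. Between 607672 and 3379426 reads were recovered per sample, and 1 read was worth from 0.365 to 1.80 in normalised read count. A locus was taken as detectable from 3 reads, a limit for counting error alone, as copies made by amplification are counted too. The size factor sets each level relative to the other transcripts of its sample, so amounts per embryo or per cell cannot be read from it. Differences were tested by limma on log2(normalised read count + 1), with adjustment over all loci tested, so that a gene with few reads shows less than its full change. Replicates correlated least at 8C (Pearson r = 0.729 across loci) and most at 4C (0.928). Both 8C embryos counted as after EGA, but the linker histone H1FOO, an oocyte gene, stood at 30.6 in replicate 1 and 1606 in replicate 2. The summed level of 9 oocyte markers ranged from 4060 to 25790 before EGA and was 41.4 and 1772 in 8C replicate 1 and 2. It was 5.07 and 9.51 in blastocysts, where the epithelial keratin KRT8 was at 543 and 543. The oocyte gene BMP15 was at 0 in every sample. Its locus lies in the same run of 2578 loci listed at 0 as DKC1, so that absence cannot be read from it. Of 9 cumulus cell markers 7 had reads before EGA and 6 after it, and their sum was 1259 to 2629 before and 406 to 1048 after, while AMH was at 0 throughout. Most of that sum was STAR, with 1075 to 2282 before and 406 to 1004 after EGA. FSHR and PTX3 were at 0 in all 10 samples after EGA and HAS2 in 8 of them. The 9 blastocyst markers summed to 436 to 1343 before EGA and 73.4 to 1367 after it, and CDX2 had reads in 1 sample, an 8C embryo. The sum before EGA was mostly ATP1B1, with 371 to 1289 before and 4.69 to 23.8 after. KRT18, AQP3 and NANOG went the other way, with at most 0.922, 3.25 and 0 before EGA and up to 401, 54.4 and 84.9 after it. The oocyte and cumulus cell sums were thus lower after EGA, and the blastocyst markers moved either way. The part of these markers in the changes of the members was not tested.

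Across EGA the tested members rose more often than they fell. Of the 43 members with reads, 34 had enough reads to be tested before against after EGA, and of these 17 rose, 2 fell and 15 did not pass the test. Over all 6910 loci tested 36.9% rose, beside 17 of the 34 members, and 29.9% fell, beside 5.88% of the members. The median log2 change of the 34 members was 1.11 against 0.23 over all loci. Passing the filter took a level of 7.42 CPM (reads scaled to the sample total) in at least 6 samples. No sample before EGA reached it in 6 of the 34 members, TCOF1, IMP3, IMP4, NOP14, RRP12 and NOP16. They entered the test only through their reads after EGA, all 6 are among the 17 rises, and no p-value is given for them across EGA. Of the other 28 members 11 rose (39.3%) and 2 fell (7.14%), beside 26.2% and 33.8% of the 5634 loci that reached the level in both periods. The values of all 10 samples after EGA lay above all 6 before it in 9 of the 34 members (26.5%, beside 16.0% of all loci), and below them in 1 (2.94%, beside 14.1%). Without the 6 members it was 6 of 28 above (21.4%, beside 8.95% of loci with the level in both periods). The plot of log2 changes shows each tested gene, and the map of levels shows all 43.

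**Figure D1:**
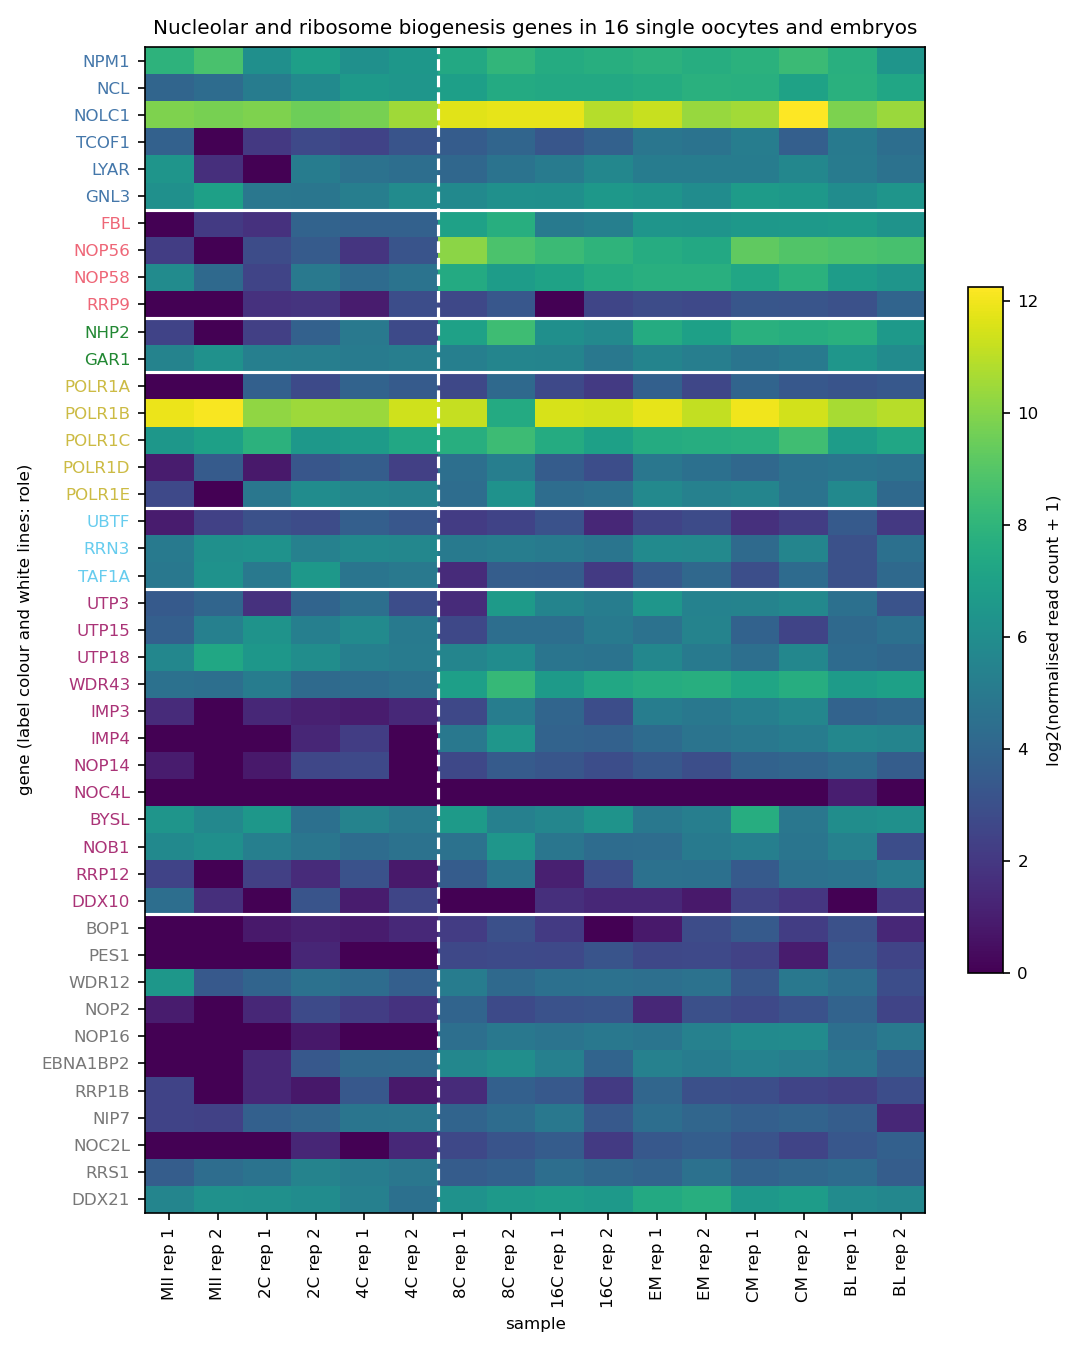
Levels of the 43 genes with reads (rows, grouped by role by white lines and label colour) in the 16 samples (columns, 2 per stage; the dashed line marks EGA), as log2(normalised read count + 1). FBL, NOP56, NHP2, IMP3, IMP4 and NOP16 turn from dark to light at the dashed line, TAF1A the other way, and POLR1B stays light except in 8C replicate 2.

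**Figure D2:**
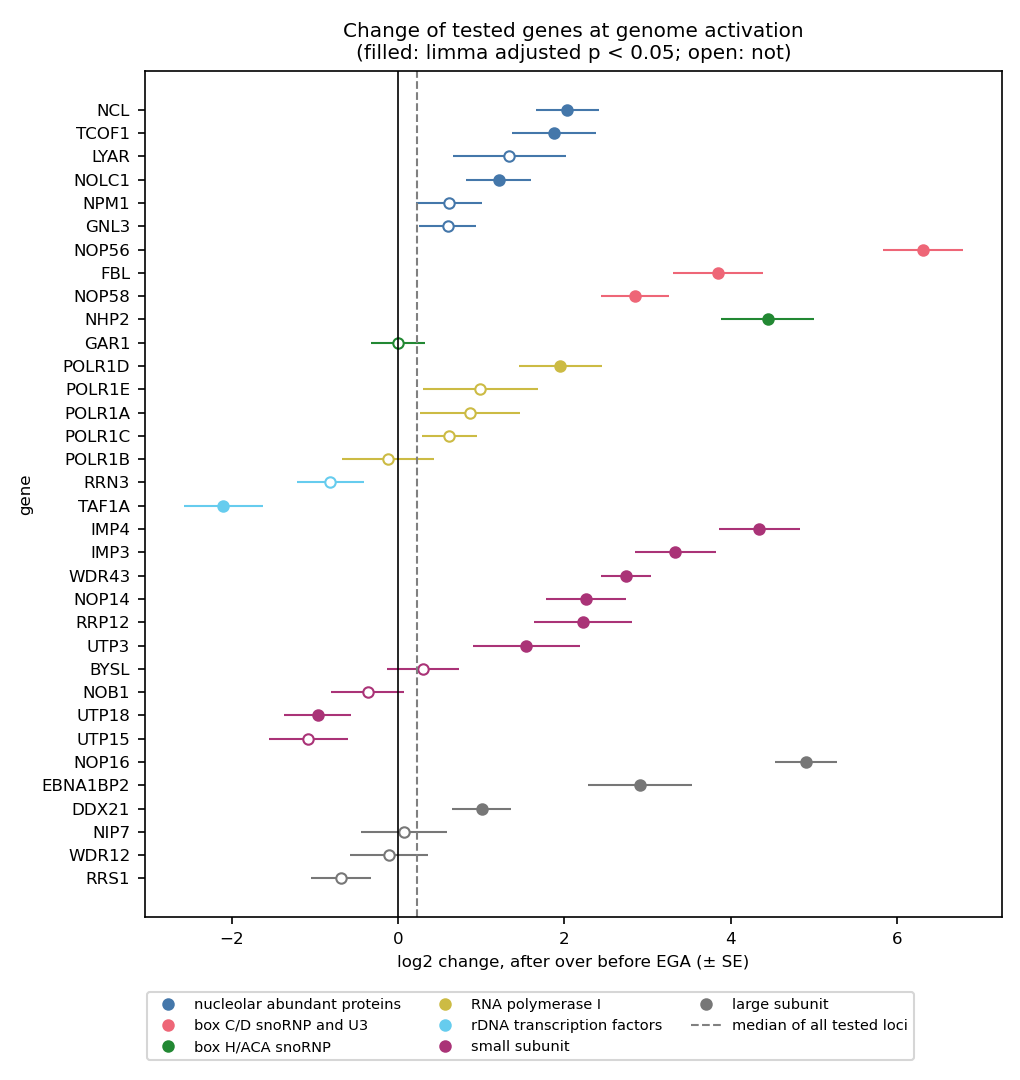
Log2 change after over before EGA (horizontal axis, bars ± SE) of the 34 tested genes by role (colours). Filled points passed limma's adjusted threshold of 0.05 (17 to the right of 0, 6 of them tested only through reads after EGA, and 2 to the left), open points did not, and the dashed line is the median of all tested loci at 0.23.

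FBL, NOP56 and NOP58, core proteins of box C/D ribonucleoproteins, rose across EGA. In each of the 3 genes the lowest value after EGA was above the highest before it. NOP56 (XLOC_012799), a scaffold protein of these particles, had 3.69 and 0 in MII oocytes, 6.33 and 10.6 at 2C, 2.77 and 8.12 at 4C, 1137 and 444 at 8C, 332 and 249 at 16C, 195 and 170.1 at EM, 612 and 484 at CM and 444 and 418 at BL. Every sample before EGA was below every sample after it. Its log2 change was 6.31 ± 0.48 (SE; limma adjusted p = 6.01e-10), and its mean rose 85.4-fold, from 5.25 ± 3.85 (SD, n = 6) to 449 ± 278 (SD, n = 10). The level stood highest at 8C, where the 2 embryos differed from each other by more than the morulae did, and lowest after EGA in the early morulae.

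FBL (XLOC_024749), which codes for fibrillarin, the methyltransferase of the same particles, had 0 and 3.19 in MII oocytes, 2.37 and 13.9 at 2C, 12.9 and 13.0 at 4C, 129.7 and 205 at 8C, 32.7 and 38.8 at 16C, 82.7 and 81.7 at EM, 92.0 and 95.7 at CM and 106 and 77.6 at BL. It had at least 3 reads in all but 1 oocyte before EGA, peaked at 8C and dipped at 16C in both embryos. The log2 change across EGA was 3.85 ± 0.54 (SE; limma adjusted p = 2.46e-06). NOP58, the partner of NOP56 in the particle, ranged from 4.75 to 59.1 (median 21.4) before EGA and from 82.4 to 226 (median 168) after it, a log2 change of 2.84 ± 0.41 (SE; limma adjusted p = 3.21e-06). Unlike NOP56, it had reads in every oocyte and embryo before EGA. Within samples the log2 ratio of NOP56 to NOP58 went from a median of -1.92 before EGA to 1.65 after it, with ranges of -4.17 to 0.351 and -0.329 to 2.64 that overlapped. The ratio of FBL to NOP58 had medians of -0.966 and -0.985. RRP9, a protein of the U3 particle that binds its RNA, had too few reads for the test across EGA, with 19 reads in all before EGA. It ranged from 0 to 6.50 (median 1.65) before and from 0 to 14.3 (median 6.64) after, and entered the test over the 8 stages only through its reads after EGA, so that no p-value is given.

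Of the box H/ACA proteins, NHP2 rose and GAR1 did not pass the test. NHP2 (XLOC_063914), a core protein that binds the guide RNA, had 4.62 and 0 in MII oocytes, 3.96 and 13.1 at 2C, 30.4 and 5.69 at 4C, 129.7 and 346 at 8C, 67.5 and 53.4 at 16C, 186 and 125 at EM, 223 and 198 at CM and 216 and 95.1 at BL. The lowest embryo after EGA, a 16C embryo, was above the highest before it, a 4C embryo. The log2 change was 4.44 ± 0.56 (SE; limma adjusted p = 6.45e-07) and the fold of the means 17.0. GAR1 (XLOC_060456), which helps the synthase release its substrate, had 44.3 and 72.3 in MII oocytes, 38.0 and 36.5 at 2C, 33.2 and 36.5 at 4C, 37.8 and 47.0 at 8C, 44.6 and 29.1 at 16C, 45.6 and 37.5 at EM, 26.6 and 31.9 at CM and 85.2 and 58.6 at BL. Its ranges of 33.2 to 72.3 before EGA and 26.6 to 85.2 after it overlapped almost whole, with a log2 change of 0.00 ± 0.32 (SE; limma adjusted p = 0.995). Both proteins sit in the same particle, and the log2 ratio of NHP2 to GAR1 was at most -0.122 in the samples before EGA and at least 0.586 in those after it, with no overlap.

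**Figure D3:**
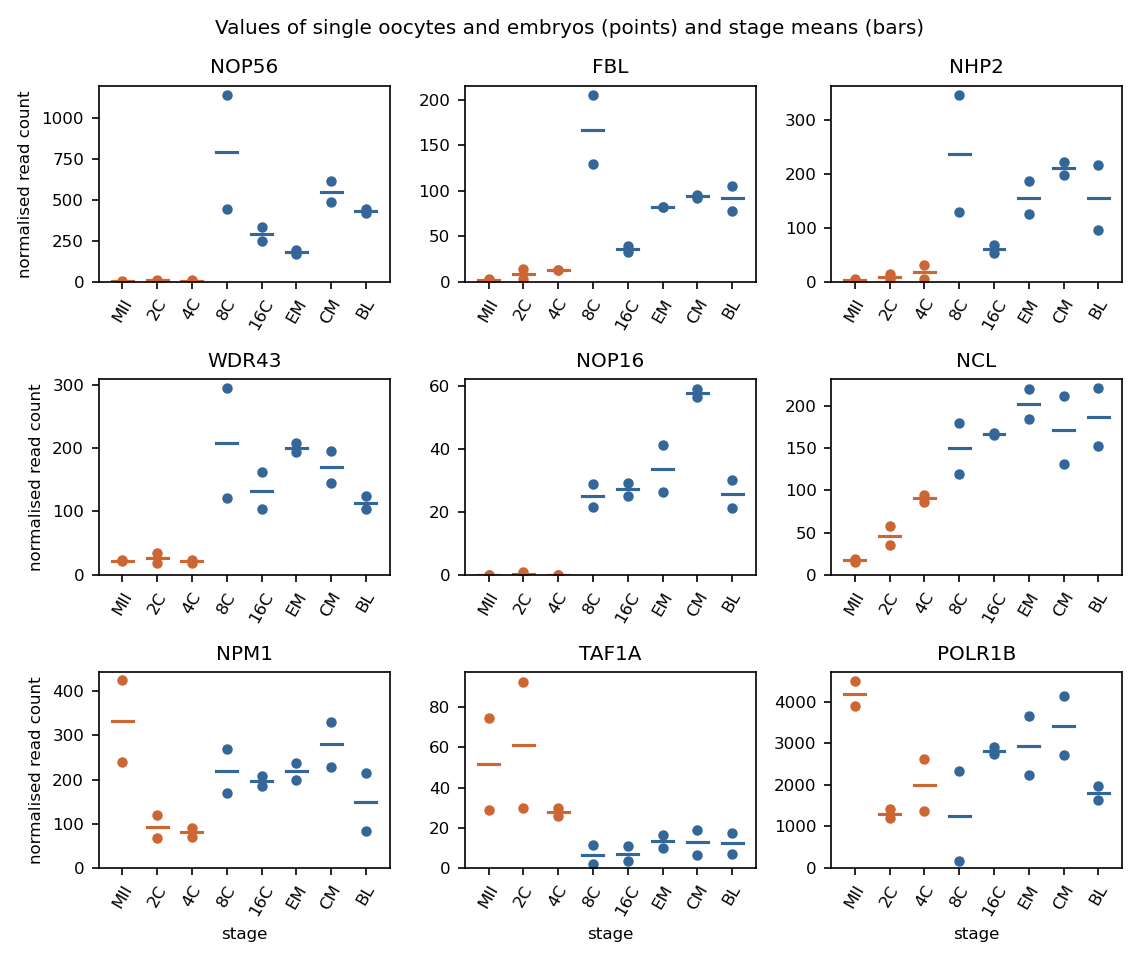
Normalised read counts (vertical axes, linear from 0) of 9 genes by stage (horizontal axes); points are single oocytes or embryos, orange before and blue after EGA, and bars are means of the 2 samples of a stage. NOP56, FBL, NHP2, WDR43 and NOP16 step up at 8C, the mean of NCL is higher at each stage than at the one before up to EM, the mean of NPM1 is lowest at 2C and 4C, TAF1A is lower from 8C on, and POLR1B is lowest in 8C replicate 2.

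Among the abundant nucleolar proteins, NCL and NOLC1 were higher in the samples after EGA than in those before it, TCOF1 was called through its reads after EGA, and NPM1, LYAR and GNL3 did not pass the test. From 4C to 8C alone none of the 6 passed (limma adjusted p = 0.294 for NCL and 0.0516 for NOLC1). NCL (XLOC_030754), which codes for nucleolin, had 14.8 and 19.1 in MII oocytes, 34.8 and 58.0 at 2C, 95.0 and 86.1 at 4C, 119 and 180.1 at 8C, 165 and 168 at 16C, 184 and 219.7 at EM, 212 and 131 at CM and 221 and 152 at BL. Its climb began before EGA, since every 2C embryo was above both oocytes and every 4C embryo above both 2C embryos. The log2 change across EGA was 2.04 ± 0.38 (SE; limma adjusted p = 7.44e-05), and no sample after EGA was as low as any before it.

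NOLC1 (XLOC_044899), a chaperone of nucleolar ribonucleoproteins, was the member of this group with the most reads. It had 938 and 848 in MII oocytes, 946 and 749.9 at 2C, 866 and 1455 at 4C, 3403 and 3646 at 8C, 3538 and 1911 at 16C, 2409 and 1330.1 at EM, 1496 and 4918 at CM and 909 and 1391 at BL. The 8C embryos were above all samples before EGA, but both blastocysts and 1 early morula lay within their range. The log2 change was 1.21 ± 0.39 (SE; limma adjusted p = 0.00978). TCOF1, or treacle, which links rRNA gene transcription to rRNA methylation, ranged from 0 to 12.9 (median 5.04) before EGA and from 8.71 to 35.5 (median 17.8) after it, with a fitted log2 change of 1.87 ± 0.50 (SE). Its ranges overlapped, through MII replicate 1 on the high side and an 8C, a 16C and a CM embryo on the low side.

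NPM1 (XLOC_033382), which codes for nucleophosmin, followed another course. It had 240.0 and 424 in MII oocytes, 67.3 and 119 at 2C, 71.0 and 90.2 at 4C, 169 and 268 at 8C, 185 and 207 at 16C, 237 and 199.8 at EM, 229 and 330.2 at CM and 215 and 84.0 at BL. Both oocytes were above every 2C and 4C embryo, and the level was higher again from 8C on except in blastocyst replicate 2. Processed copies of NPM1 are common in mammalian genomes, and the counting of reads with several matches is not given in the sources used here, so its level is uncertain. The log2 change across EGA was 0.61 ± 0.40 and did not pass the test (limma adjusted p = 0.177). GNL3, or nucleostemin, a nucleolar GTPase, ranged from 27.4 to 126 (median 47.7) before EGA and from 55.9 to 104 (median 75.6) after it. LYAR, a nucleolar zinc finger protein, ranged from 0 to 82.2 (median 22.1) and from 16.2 to 50.1 (median 33.9). Its spread lay before EGA, where the 2 oocytes had 82.2 and 2.13 and the 2C embryos 0 and 34.3. The log2 changes of GNL3 and LYAR were 0.59 ± 0.34 and 1.34 ± 0.68 (limma adjusted p = 0.130 and 0.0872).

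The genes for RNA polymerase I showed 1 rise among 5. POLR1D (XLOC_010588), a subunit shared with RNA polymerase III, had 0.923 and 10.6 in MII oocytes, 0.791 and 8.76 at 2C, 11.1 and 4.06 at 4C, 21.6 and 36.7 at 8C, 10.9 and 6.47 at 16C, 27.8 and 21.9 at EM, 16.6 and 23.5 at CM and 26.4 and 23.8 at BL. The 16C embryos lay within the range of the samples before EGA and the other 8 samples after EGA above it. The log2 change was 1.95 ± 0.50 (SE; limma adjusted p = 0.00174). POLR1C, its partner in both polymerases, ranged from 90.5 to 232 (median 114) before EGA and from 109.6 to 366 (median 192) after it, a log2 change of 0.61 ± 0.33 (SE; limma adjusted p = 0.106).

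POLR1B (XLOC_007753), the second largest catalytic subunit, took the most reads of all members. It had 3894 and 4491 in MII oocytes, 1199.6 and 1409.7 at 2C, 1367 and 2633 at 4C, 2333 and 179 at 8C, 2901 and 2743 at 16C, 3646 and 2238 at EM, 4132 and 2709.5 at CM and 1625 and 1974 at BL. The oocytes were above the other samples before EGA, and 8C replicate 2 was below every other sample. The log2 change was -0.13 ± 0.55 (SE; limma adjusted p = 0.846), and it was 0.28 with both 8C embryos left out. A second locus of that name had values between 2.29 and 76.6, and one of NOLC1 between 10.6 and 184. The locus used and the second one had 44263 and 561 reads for POLR1B, and 32178 and 1480 for NOLC1. The counting of reads with several matches is not given in the sources used here, so the levels of both genes are uncertain. POLR1A, the largest subunit, had 0 in both samples in MII oocytes, 12.7 and 5.84 at 2C and 13.8 and 10.6 at 4C, and from 3.23 to 17.2 (median 8.75) after EGA. POLR1E, a subunit of the initiating enzyme, had 5.54 and 0 in MII oocytes, 28.5 and 62.0 at 2C and 48.9 and 43.9 at 4C, and from 17.4 to 75.7 (median 32.3) after EGA. Both were lower in the oocytes than in any 2C or 4C embryo, and their log2 changes across EGA of 0.86 ± 0.60 and 0.99 ± 0.69 did not pass the test (limma adjusted p = 0.214 and 0.212).

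No initiation factor of RNA polymerase I rose. TAF1A (XLOC_019702), a subunit of the promoter selectivity factor, had 28.6 and 74.5 in MII oocytes, 30.1 and 92.7 at 2C, 25.8 and 30.1 at 4C, 1.80 and 11.5 at 8C, 10.9 and 3.23 at 16C, 10.05 and 16.4 at EM, 6.65 and 18.8 at CM and 7.10 and 17.4 at BL. Every oocyte and embryo before EGA was above every embryo after it, and the log2 change was -2.11 ± 0.47 (SE; limma adjusted p = 5.45e-04). It was the 1 member with all samples before EGA above those after it. RRN3 (XLOC_042981), which brings the polymerase to the promoter, had 31.4 and 70.2 in MII oocytes, 75.2 and 40.9 at 2C, 55.3 and 49.5 at 4C, 30.6 and 35.6 at 8C, 31.6 and 25.9 at 16C, 58.0 and 53.6 at EM, 17.7 and 46.9 at CM and 7.10 and 22.2 at BL. The ranges overlapped, and its log2 change of -0.82 ± 0.41 did not pass the test (limma adjusted p = 0.0802). UBTF, which binds and opens the rRNA genes, had too few reads for that test, and ranged from 0.923 to 12.0 (median 6.66) before EGA and from 1.62 to 10.1 (median 4.17) after it, with no stage effect called (limma adjusted p = 0.505).

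Among the 13 small subunit factors, 10 could be tested, of which 6 rose and 1 fell, and 4 of the 6 (IMP3, IMP4, NOP14 and RRP12) were tested only through their reads after EGA. WDR43 (XLOC_007827), a protein of the small subunit processome, had the most reads of the group. It had 23.1 and 21.3 in MII oocytes, 34.0 and 17.9 at 2C, 19.4 and 22.7 at 4C, 121 and 295 at 8C, 103 and 162 at 16C, 193 and 208 at EM, 145 and 196 at CM and 104 and 124 at BL. The 6 samples before EGA lay close together and every embryo from 8C on was above them. The log2 change was 2.74 ± 0.31 (SE; limma adjusted p = 1.17e-07).

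IMP3 and IMP4, which work together with the U3 particle, were near the detection limit before EGA. IMP4 (XLOC_029888) had 0 in both samples in MII oocytes, 0 and 1.46 at 2C, 3.69 and 0 at 4C, 28.8 and 84.9 at 8C, 14.2 and 12.9 at 16C, 18.5 and 25.0 at EM, 28.8 and 34.7 at CM and 50.7 and 45.9 at BL. Before EGA it had 8 reads in all, in 1 2C and 1 4C embryo, and its fitted log2 change of 4.35 ± 0.48 (SE) depends on the pseudocount. IMP3 had 10 reads before EGA, and ranged from 0 to 1.85 (median 1.34) before and from 5.40 to 47.8 (median 22.6) after EGA, a fitted log2 change of 3.33 ± 0.49 (SE). For both genes all samples after EGA were above all before it. NOP14, a processome protein, had a fitted log2 change of 2.26 ± 0.48 (SE), and RRP12, an export factor, one of 2.22 ± 0.59. They ranged from 0 to 5.53 (median 0.857) and from 0 to 7.38 (median 2.89) before EGA and from 5.40 to 19.3 (median 9.80) and from 1.09 to 34.9 (median 22.4) after it, and in both the ranges overlapped.

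UTP3, UTP18 and UTP15, 3 other processome proteins, were close to the threshold. UTP3 had 10.2 and 14.9 in MII oocytes, 2.37 and 14.6 at 2C, 21.2 and 6.50 at 4C, 1.80 and 101 at 8C, 45.7 and 35.6 at 16C, 85.0 and 42.2 at EM, 43.2 and 52.5 at CM and 22.3 and 7.92 at BL. Both 8C embryos stood at the ends of its range after EGA, and the log2 change of 1.54 ± 0.64 (SE; limma adjusted p = 0.0402) passed the test in 15 of 26 alternatives. UTP18 ranged from 33.3 to 159.5 (median 57.3) before EGA and from 15.8 to 60.8 (median 29.1) after it. Its log2 change of -0.97 ± 0.40 (SE; limma adjusted p = 0.0384) also passed in 15 of 26 alternatives, and in neither of the other scalings. UTP15 (XLOC_033591), which had the most negative log2 change of the group, had 12.0 and 39.4 in MII oocytes, 77.5 and 38.7 at 2C, 57.2 and 31.7 at 4C, 5.40 and 20.6 at 8C, 20.7 and 30.7 at 16C, 24.0 and 44.2 at EM, 13.3 and 4.69 at CM and 17.2 and 22.2 at BL. Its log2 change of -1.08 ± 0.48 did not pass the test (limma adjusted p = 0.0513), but passed in 6 of 26 alternatives, edgeR and DESeq2 among them.

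The other small subunit factors gave no call across EGA. BYSL, or bystin, ranged from 21.9 to 88.6 (median 47.2) before EGA and from 28.1 to 198 (median 56.5) after it, and NOB1, the nuclease of the last cut of small subunit rRNA, from 19.4 to 67.0 (median 33.1) and from 6.34 to 84.9 (median 26.7). Their log2 changes were 0.30 ± 0.43 and -0.37 ± 0.44 (limma adjusted p = 0.551 and 0.472). NOC4L had 1 read in the whole series, in blastocyst replicate 1. The helicase DDX10 had 53 reads before EGA and ranged from 0 to 20.3 (median 3.50) there and from 0 to 4.43 (median 1.58) after it, too low in most samples for either test.

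Of the 11 large subunit factors 6 could be tested across EGA, and EBNA1BP2 and DDX21 rose, as did NOP16 through its reads after EGA. NOP16 (XLOC_063892) had almost no reads before EGA. It had 0 in both samples in MII oocytes, 0 and 0.730 at 2C, 0 in both samples at 4C, 21.6 and 28.7 at 8C, 25.0 and 29.1 at 16C, 26.3 and 41.1 at EM, 56.5 and 59.1 at CM and 21.3 and 30.1 at BL. The only reads before EGA were 2, in 1 2C embryo, and the lowest embryo after it had 21.3. The fitted log2 change of 4.90 ± 0.37 (SE) depends on the pseudocount and ranged from 2.86 to 6.99 over the alternatives. EBNA1BP2, an early assembly factor, had 0 in both samples in MII oocytes, 1.58 and 9.49 at 2C, 16.6 and 17.1 at 4C, 50.4 and 66.5 at 8C, 39.2 and 14.6 at 16C, 41.0 and 34.4 at EM, 42.1 and 37.5 at CM and 26.4 and 12.7 at BL. No read was found in either oocyte, the 4C embryos were above the 2C embryos, and the log2 change across EGA was 2.90 ± 0.63 (SE; limma adjusted p = 3.50e-04).

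DDX21 (XLOC_047306), a helicase of rRNA transcription and processing, had the most reads of the group. It had 46.2 and 73.4 in MII oocytes, 71.2 and 61.7 at 2C, 39.7 and 21.9 at 4C, 75.7 and 97.5 at 8C, 109.9 and 95.4 at 16C, 174 and 206 at EM, 92.0 and 109.8 at CM and 58.8 and 50.7 at BL. The early morulae were above all other samples and the blastocysts within the range before EGA. The log2 change was 1.00 ± 0.36 (SE; limma adjusted p = 0.0182), and without 4C replicate 2 it was 0.78 (limma adjusted p = 0.0635). RRS1 (XLOC_014935), which helps place the small rRNA of the large subunit, had 11.1 and 20.2 in MII oocytes, 24.5 and 44.2 at 2C, 36.0 and 27.6 at 4C, 10.8 and 12.6 at 8C, 20.7 and 16.2 at 16C, 13.9 and 23.1 at EM, 13.3 and 15.9 at CM and 18.3 and 11.1 at BL. The ranges overlapped, and the log2 change of -0.69 ± 0.36 did not pass the test (limma adjusted p = 0.0953). WDR12 ranged from 9.57 to 90.5 (median 16.8) before EGA and from 6.34 to 34.2 (median 21.7) after it, and NIP7, an assembly factor of late precursors, from 4.25 to 26.8 (median 14.0) and from 1.58 to 29.4 (median 14.2). Their log2 changes were -0.11 ± 0.47 and 0.07 ± 0.52 (limma adjusted p = 0.844 and 0.909).

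BOP1 and PES1, the partners of WDR12 in the complex that processes large subunit rRNA, had too few reads for the test across EGA, as had NOP2, RRP1B and NOC2L. Before EGA, BOP1 ranged from 0 to 1.62 (median 0.857) and PES1 from 0 to 1.46 (median 0). After EGA they ranged from 0 to 9.97 (median 3.68) and from 0.938 to 9.13 (median 5.43). PES1 had a read in every embryo after EGA and in 1 of 6 samples before it. The rRNA methyltransferase NOP2 ranged from 0 to 5.84 (median 2.01) and from 1.55 to 14.4 (median 7.27) before and after EGA, RRP1B from 0 to 9.22 (median 1.20) and from 1.80 to 15.5 (median 6.49), and NOC2L from 0 to 1.62 (median 0) and from 3.23 to 12.7 (median 8.58). NOC2L had no overlap between the periods. BOP1, PES1, NOP2, RRP1B and NOC2L entered the test over the 8 stages only through their reads after EGA, so that no p-value is given.

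Over the 8 stages 41 of the 43 members with reads could be tested, and 23 of them (56.1%) differed between stages, beside 66.7% of the 9670 loci tested. That share lay below the background. The contrasts between stages show where the changes fell, and each of them rests on 2 samples a stage and a spread shared over all 8.

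Within the period before EGA, 5 members rose from MII oocytes to 4C embryos and NPM1 fell. The fitted log2 changes of the rises were 4.21 ± 0.88 in POLR1E, 4.16 ± 0.75 in EBNA1BP2, 3.71 ± 0.78 in POLR1A and 2.77 ± 0.75 in FBL (SE). That of NCL was 2.36 ± 0.50 (SE; limma adjusted p = 0.0137). EBNA1BP2 and POLR1A were at 0 in both oocytes, so that their fitted changes depend on the pseudocount, and ranged from 2.13 to 7.21 and from 1.78 to 6.75 over the alternatives. In FBL, POLR1A, POLR1E and EBNA1BP2 no oocyte reached 7.42 CPM, so that no p-value is given for them from MII to 4C. Of the 19 members that reached it at both stages, NCL rose and NPM1 fell (5.26% each, beside 2.63% and 3.3% of such loci). In all 5 genes both 4C embryos were above both oocytes. NPM1 changed by -1.98 ± 0.56 (SE; limma adjusted p = 0.0416), and both of its 4C embryos were below both oocytes. The fall passed in 12 of 26 alternatives and was lost with TMM factors, total reads, no filter, edgeR and the compared stages alone, among others. The rise of FBL passed in 15 of 26. The 5 rises were 12.2% of the 41 members tested, beside 6.48% of all loci, and the fall 2.44% beside 2.19%. Over all loci 627 rose and 212 fell, against 1054 and 56 when scaled to total reads, where 7 members rose and NPM1 was not called. No member passed as a rise without 4C replicate 1 or without 4C replicate 2, and 2 did without MII replicate 2, while over all loci the rises went from 627 to 20, 27 and 79. The 9 oocyte markers summed to at least 16155 in the oocytes, and their part in these changes was not tested.

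From 4C to 8C, the step in which EGA is placed, 11 members rose and none passed as a fall. The rises were 26.8% of the 41 members, beside 17.7% of all loci that rose and 19.1% that fell, and the median log2 change was 1.03 against -0.08 over all loci. In 6 of the 11, NOP56, IMP3, IMP4, PES1, NOP16 and NOC2L, no 4C embryo reached 7.42 CPM. Of the 27 members that reached it at both stages 5 rose (18.5%, beside 11.7% of 4721 such loci) and 0 fell (beside 16.6%). The largest fitted log2 changes were those of NOP56 with 6.92 ± 0.71, NOP16 with 4.70 ± 0.67 and IMP4 with 4.55 ± 0.83 (SE). NOP16 had no read in either 4C embryo and IMP4 none in 1 of them, and over the alternatives their changes ranged from 2.58 to 7.89 and from 3.06 to 5.66. The other 8 were NHP2, FBL, WDR43, IMP3, PES1, NOP58, NOC2L and DDX21, with log2 changes from 1.51 in DDX21 to 3.88 in NHP2. PES1 was also at 0 in both 4C embryos. By role these were 3 of the 4 box C/D genes, 1 of 2 box H/ACA genes, 3 of 10 small subunit factors and 4 of 11 large subunit factors. None of the 6 abundant nucleolar proteins, 5 polymerase subunits or 3 initiation factors passed. Without the replicate block none of the 41 members fell by limma, and with it TAF1A did, with a log2 change of -2.29 (limma adjusted p = 0.0379). Of 18 members at an unadjusted p under 0.05 (43.9%, beside 46.1% of all loci), TAF1A, UTP15 and RRS1 were lower at 8C (limma adjusted p = 0.0569, 0.0703 and 0.0981), and edgeR and DESeq2 called 0 falls. When 4C replicate 2 was left out 6 members rose, and over all loci the rises went from 1711 to 1059. Without 8C replicate 2, the embryo with the higher oocyte markers, IMP3, DDX21 and NOC2L did not pass, and TAF1A and UTP15 passed as falls, with log2 changes of -3.36 and -2.77 (limma adjusted p = 0.0152 and 0.0217). Without 8C replicate 1, POLR1B passed as a fall of -3.40 (limma adjusted p = 0.00265), which rests on the value of 179 in replicate 2. NOP56 and NOP58 were higher in 8C replicate 1, and NHP2, FBL, IMP4, IMP3, WDR43 and NOP16 in 8C replicate 2.

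From 8C to blastocyst no member passed the limma test in either direction, beside 6.44% of all loci that rose and 3.63% that fell. At an unadjusted p under 0.05 there were 4 members (9.76%, beside 24.7% of all loci), all lower in blastocysts. They were UTP18, NOLC1, EBNA1BP2 and NIP7, with log2 changes of -1.59 ± 0.62, -1.65 ± 0.63, -1.61 ± 0.75 and -1.66 ± 0.77. By edgeR and by DESeq2 the count was also 0, where over all loci edgeR called 141 rises and 198 falls and DESeq2 286 and 371. With these 2 stages alone 19 of 9466 loci were called. Without 8C replicate 1, POLR1B passed as the 1 rise, with a log2 change of 3.32 (limma adjusted p = 0.00435). The 8C embryos themselves differed by a median of 0.737 on the log2 scale over the members and of 1.10 over all loci.

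The stage of the highest mean was most often 8C. Of the 41 members, 10 (24.4%) had their highest mean at 8C, beside 11.1% of all loci tested. At MII, 2C or 4C it was 13 members (31.7%) beside 42.5% of loci, and at 16C none beside 9.44%. The early and compact morulae held the highest mean of 5 and 6 members (12.2% and 14.6%, beside 8.54% and 7.91% of loci). The blastocysts held that of 7 (17.1%, beside 20.5%). These shares are a description and depend on 2 samples a stage. Replicates of the members differed least in early morulae, with a median difference of 0.332 on the log2 scale, and most at MII and 2C, with 0.820 and 0.823.

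**Figure D4:**
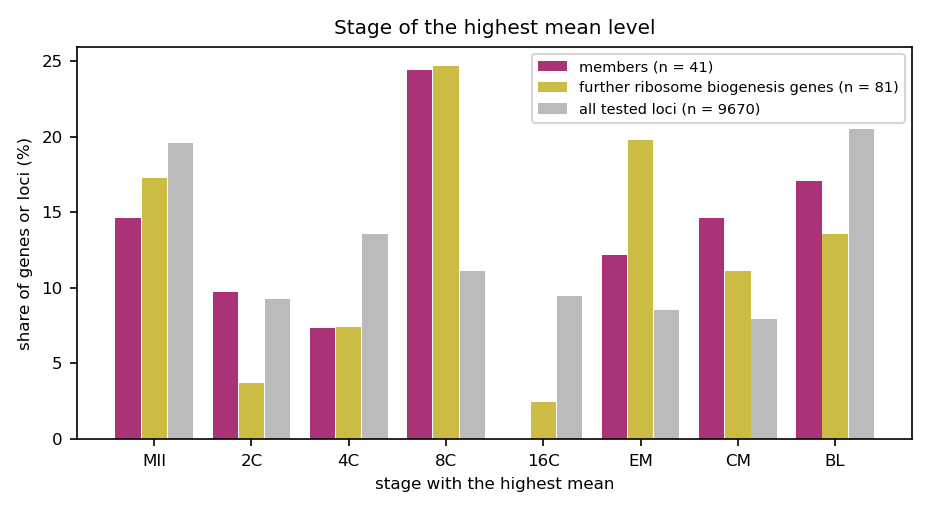
Share of genes (vertical axis, percent) whose mean of 2 samples was highest at each stage (horizontal axis), for the 41 tested members, 81 further ribosome biogenesis genes and all 9670 tested loci. At 8C the bars of both gene lists stand near 24.4% and 24.7%, above the 11.1% of all loci, and at 16C no member has its highest mean.

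In reads, the members took between 0.241% and 0.380% of all reads before EGA and between 0.471% and 0.900% after it. The lowest sample after EGA, blastocyst replicate 1, was above the highest before it, 4C replicate 2. NOLC1 and POLR1B held between 52.1% and 81.4% of the members' summed normalised read counts. Without these 2 genes the share of reads was 0.0533% to 0.0877% before EGA and 0.138% to 0.337% after it. The share was highest in both early morulae over all members, and in early morula replicate 2 without these genes. The share of reads also moves with the most read locus, which took 7.44% to 26.99% of reads before EGA and 1.54% to 5.90% after it, and the part of that in these shares was not tested. The number of members with a read was 25 and 33 in the oocytes, 36 to 42 at 2C and 4C and 41 or 42 in every embryo after EGA. The number of all loci with a read was 8893 and 9736 in the same oocytes, 10979 to 12176 at 2C and 4C and 9372 to 11676 after EGA.

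A further 88 ribosome biogenesis genes were counted beside the members. They include genes of the exosome and of nucleases that trim rRNA, a role that no member has, and none of the abundant nucleolar or box C/D proteins. By name 86 were found, and 71 could be tested across EGA. Of these 34 rose (47.9%, beside 36.9% of all loci) and 7 fell (9.86%, beside 29.9%), and the median log2 change was 0.98. In 9 of the 34 no sample before EGA reached 7.42 CPM, and of the 62 genes that reached it in both periods 25 rose (40.3%, beside 26.2% of such loci) and 7 fell (11.3%, beside 33.8%). All samples after EGA were above all before it in 11 of the 71 (15.5%, beside 16.0% of all loci). The largest fitted rises were those of KRR1, a small subunit processome protein, DDX27, a helicase of large subunit assembly, and TWISTNB, a subunit of RNA polymerase I. KRR1 ranged from 0 to 3.19 (median 0.578) before EGA and from 18.5 to 473 (median 60.4) after it, a fitted log2 change of 5.35 ± 0.63 (SE). It was highest in the blastocysts, with 473 and 331. DDX27 ranged from 0 to 8.12 (median 1.47) and from 34.9 to 129.6 (median 74.0), with a fitted log2 change of 4.90 ± 0.48, and TWISTNB from 0 to 2.44 (median 0.857) and from 33.3 to 73.2 (median 53.5), with one of 4.88 ± 0.38. In all 3 every embryo after EGA was above all samples before it. KRR1 and TWISTNB had 6 reads each before EGA, and these 3 genes were tested only through their reads after it, so that no p-value is given.

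The largest falls were those of HEATR1, a small subunit processome protein, NMD3, the export adaptor of the large subunit, and TAF1D, which sits with TAF1A in the promoter selectivity factor. HEATR1 had 35.1 and 41.5 in MII oocytes, 19.8 and 60.9 at 2C and 136 and 227 at 4C and ranged from 0 to 57.3 (median 3.42) after EGA, with a log2 change of -3.65 ± 0.72 (SE; limma adjusted p = 1.54e-04). Its highest value after EGA, 57.3, was that of 8C replicate 2. NMD3 ranged from 44.3 to 81.2 (median 62.6) before EGA and from 0 to 21.6 (median 11.1) after it, with a log2 change of -2.73 ± 0.53 (SE; limma adjusted p = 1.22e-04). TAF1D ranged from 288 to 1124 (median 547) and from 26.4 to 258 (median 139.8), with a log2 change of -2.08 ± 0.43 (SE; limma adjusted p = 2.37e-04). In NMD3 and TAF1D all samples before EGA were above all after it. From 4C to 8C 18 of the 81 further genes tested rose (22.2%, beside 17.7% of all loci) and 6 fell (7.41%, beside 19.1%). In 12 of the 18 no 4C embryo reached 7.42 CPM. Of the 57 further genes that reached it at both stages, 6 rose (10.5%, beside 11.7% of such loci) and 6 fell (10.5%, beside 16.6%). From 8C to blastocyst 3 rose and 3 fell (3.70% each, beside 6.44% and 3.63%).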

How the data were processed

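The authors extracted RNA from single oocytes and embryos, amplified it and sequenced it on the SOLiD platform. The submitters' processing notes name cutadapt, FastQC, TopHat, Cufflinks and HTSeq; versions, the genome build and the counting of reads with several matches are not given in the sources used here. The deposited values are a signal per locus: read counts of 27393 loci divided by 1 size factor per sample. Divided by the smallest value of its sample, each value above 0 came out whole (100%, tolerance 0.1 read), which gave the reads back. No other columns of per-sample values were present, and no column of comparisons.

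Groups and replicate numbers came from the sample labels. Differences were tested by limma 3.58.1 in R 4.3.3 (empirical Bayes with trend) on log2(value + 1), for loci that passed filterByExpr of edgeR, with Benjamini-Hochberg adjustment at 0.05 over all of them. The comparison before and after EGA used 6910 loci and the model of 8 stages 9670. Alternatives were TMM factors and total reads as scaling, pseudocounts of 0.5 and 5, no filter, edgeR 4.0.16 and DESeq2 1.42.0 on reads, a block for the replicate number, each sample left out, both 8C samples left out, the compared stages alone, and loci of 1 name summed. The limma tests across EGA, from 4C to 8C and over the 8 stages were also run on simulated data, with an outcome that is not given here. Tables were handled in Python 3.11.15 with pandas 2.3.3.

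The members, the further genes and the marker lists were chosen with earlier results of these data known. Values are given for every member called across EGA; the values of single samples are given for the member of each role with the highest mean CPM (reads scaled to the sample total) and those with the largest rise and fall; absent and low members and the 3 largest rises and falls of each contrast and of the further genes are named. Sample values of NPM1, FBL, GAR1, UTP3 and EBNA1BP2 were added after they were seen. Without gene lengths, levels per length were not computed.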

Additional observations from a re-analysis of the deposited data

Results flagged for a closer look

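The highest or lowest sample was set against the others in each period for every member tested across EGA, which gave 68 groups of 6 or 10 samples. In 7 of them that sample stood apart by Dixon's critical value. The error rate of that value is not known for counts with zeros from several stages, so the 7 are a description only. The groups mix stages, so a sample can stand apart because of its stage. NPM1 was 84.0 in blastocyst replicate 2, beside 169 to 330.2 in the other 9 samples after EGA. NIP7 was 1.58 in the same blastocyst, beside 9.70 to 29.4. POLR1B was 179 in 8C replicate 2, beside 1625 to 4132 in the other samples after EGA. NOLC1 was 1455 in 4C replicate 2, beside 749.9 to 946 in the others before EGA. GAR1 was 72.3 in MII replicate 2, beside 33.2 to 44.3. WDR12 was 90.5 in MII replicate 1, beside 9.57 to 22.6. NOP16 was 0.730 in 2C replicate 2, the most deeply read sample, and 0 in the other 5 samples before EGA.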

How the results depend on the processing

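Of the 17 rises across EGA, 6 rest on the filter and are not counted as stable. The other 11 kept their direction and, apart from UTP3 and DDX21, passed the test in each of 26 alternatives. The count of rises was 15 to 19 with 1 sample left out and 21 with total reads. TAF1A fell in all of them. The number of falls (2) was 1 with TMM factors, total reads or no filter and 4 with edgeR or DESeq2, and ranged from 1 to 4 with 1 sample left out. The number with a stage effect (23) ranged from 15 (without MII replicate 2) to 24. From MII to 4C the rises (5) ranged from 0 to 6 and the fall (1) from 0 to 1 with 1 sample left out; with the compared stages alone there were 2 rises and 0 falls, and the fall was lost (0) with TMM factors, total reads, no filter and edgeR. From 4C to 8C the rises (11) ranged from 6 to 12 and the falls (0) from 0 to 2 with 1 sample left out, and with the compared stages alone 5 rose. From 8C to blastocyst the rises (0) ranged from 0 to 1, POLR1B without 8C replicate 1.

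The replicate numbers did not pair the samples: over 28 pairs of stages the correlation of replicate deviations ran from -0.257 to 0.134 (median 0.00397), over 0.1 in 1. With the replicate block, 17 members rose and 2 fell across EGA, and TAF1A fell from 4C to 8C (1 fall, 0 without the block).

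Changes in sign were seen in 5 members that did not pass the test across EGA. GAR1 was -0.090 by edgeR and ranged from -0.11 to 0.16 with 1 sample left out. NIP7 was -0.15 by edgeR and -0.022 without 8C samples, and ranged from -0.19 to 0.34. POLR1B was 0.35 with total reads and 0.28 without 8C samples, and ranged from -0.30 to 0.26. WDR12 was 0.34 with total reads and ranged from -0.31 to 0.31, and NOB1 was 0.10 with total reads. The cause of these shifts was not tested. The median of all loci across EGA was 0.23, 0.32 with TMM factors and 0.67 with total reads, and from MII to 4C 0.15, 0.21 and 0.68. With total reads NPM1, LYAR, GNL3 and POLR1C also rose across EGA. Genes with few reads before EGA, such as NOP16, IMP3 and IMP4, are limited by depth in the size of their change.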
